A study of Mus musculus with 8 samples.

Results

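Contacts on the Chic1-14kbD allele were compared with those on the Chic1-4kbD allele, as measured by 5C in 4 of the 8 libraries of the series. These are all libraries carrying either label, 2 per allele. Both alleles were studied in undifferentiated (day 0) E14 cells, a male XY mouse embryonic stem cell line of 129/Ola strain, and both have lost sequence within Chic1, of 4 kb or 14 kb by the labels. The Chic1-4kbD libraries came from 2 clones, whereas the Chic1-14kbD libraries are 2 replicates of 1 clone made with CRISPR-Cas9, so that the spread of the larger deletion is not a spread between clones. The remaining libraries, used for the estimate of the spread and as a reference, carry inversions of 245 kb (245kb-INV, 2 clones, with Chic1 inside the inversion) or of 51 kb within Linx (Linx-51kb-INV, 2 libraries). The wild-type allele was not analysed here. The question was therefore how contacts differed between the libraries of the larger and of the smaller deletion.

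The X-inactivation center holds Xist, the noncoding RNA that silences the chromosome it coats, and its antisense repressor Tsix, in neighboring topologically associating domains (TADs). In the Tsix-TAD, the noncoding locus Linx, the gene Chic1 and the Tsix enhancer Xite carry clusters of sites for CTCF, a protein that anchors chromatin loops in a manner that depends on the orientation of its motif. The smaller deletion takes away part of the CTCF sites of Chic1, and the larger one was made to remove them all. In 5C, crosslinked fragments that were ligated to each other are counted with pairs of forward and reverse primers, so that each count belongs to a pair of HindIII fragments.

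Fragments that overlap the interval from 100565598 to 100580662 of chromosome X (mm9) were left out. This interval of 15065 bp lies inside Chic1 (100551815 to 100591431, forward strand), with 13783 bp of the annotated gene on its left and 10769 bp on its right, and overlaps 1 annotated exon interval. Matches to the letters CCNNNAGNNGGC, which are part of the CTCF motif, were searched on both strands of the interval because the alleles differ in how much of it they keep. There were 4 matches, all intronic. They are shown from 5′ to 3′ on their own strand, with the match in capitals.
Match 1, reverse strand, chrX:100566774-100566803: ccctgcaggCCAGAAGAGGGCatcaggatc
Match 2, reverse strand, chrX:100567167-100567196: gcctgtaggCCAGAAGAGGGCaccagatct
Match 3, reverse strand, chrX:100569797-100569826: gcctgtgggCCAGAAGAGGGCaccagaacc
Match 4, forward strand, chrX:100574652-100574681: taaaacagcCCAAAAGAAGGCacaagaatc
The reverse-strand matches have the same 12 letters. Of 304 windows of the same length along the map, 78.0% held at least 1 match and 14.8% held 4 or more. The letters of the reverse-strand matches were found in 32.2% of the windows, and 11 windows held them 3 or more times. A match is a description of the sequence and not a measured site.

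The fragments of the interval checked the labels. Matches 1 and 2 lie on the fragment from 100565598 to 100567847, which had 2668 to 2963 CPM (counts per 1000000 between X-chromosomal fragments at most 300 kb apart) in the inversion libraries. It had 74.8 and 46.1 in the Chic1-4kbD libraries and 5.45 and 31.4 in the Chic1-14kbD libraries, so that its counts were nearly lost in both alleles. Matches 3 and 4 lie on the fragment from 100567977 to 100576563, which kept its counts in Chic1-4kbD, at 1746 and 1715 CPM, but was at 3.48 and 16.5 in Chic1-14kbD. The next fragments, from 100577373 to 100578553 and from 100578554 to 100579404, behaved likewise, with 1617 to 2816 CPM in Chic1-4kbD and 5.26 to 44.8 in Chic1-14kbD. The last fragment, from 100579405 to 100583702, reaches beyond the interval and kept its counts in both alleles, at 2690 and 2906 in Chic1-4kbD and at 2262 and 1957 in Chic1-14kbD. Counts are read at a HindIII end of each fragment, for the one with matches 3 and 4 at 100576543 to 100576568. They do not show whether these matches remain in Chic1-4kbD. The counts went with the labels in each of the 4 libraries. Outside the interval, the nearest fragment on its left (100560525 to 100565597) was at 893 and 870 CPM in Chic1-4kbD, below the other 6 libraries (1088 to 2251).

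**Figure D1:**
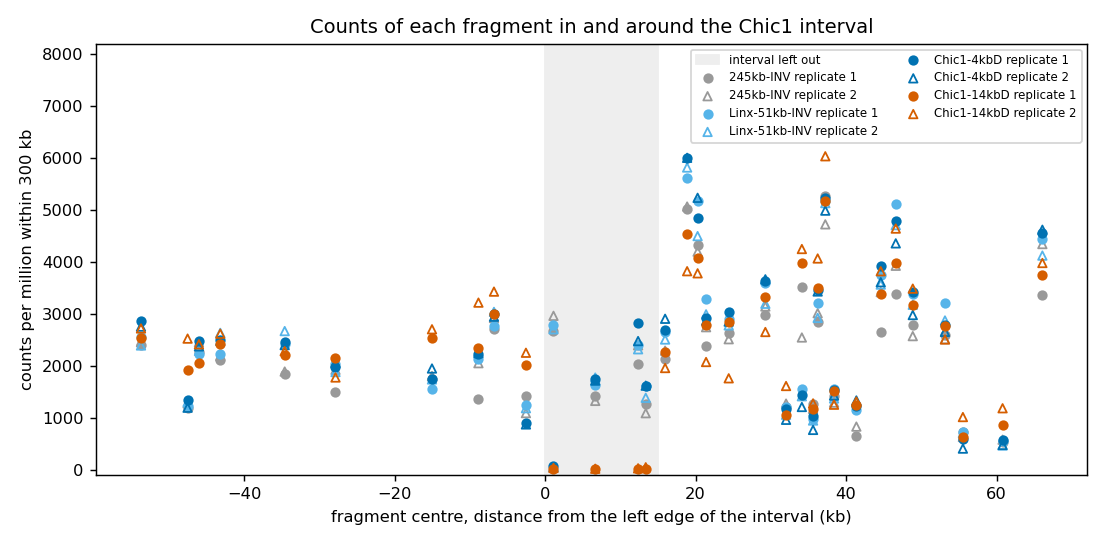
CPM (y axis) of each fragment that passed the primer filter, by the distance of its center from the left edge of the interval in kb (x axis), with 1 symbol per library and the interval shaded. The first fragment of the interval is near 0 in both deletion alleles, and the next 3 are near 0 in Chic1-14kbD.

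The total count was 10517045 and 8184318 in Chic1-4kbD and 21046109 and 1614282 in Chic1-14kbD, so that the second Chic1-14kbD library is the shallowest. Between fragments of chromosome X at most 300 kb apart lay 62.1% and 59.7% of the X-chromosomal counts in Chic1-4kbD and 73.5% and 80.2% in Chic1-14kbD. The mean count of a pair joining chromosomes X and 5, a measure of background, was 3.23% and 3.83% of the mean analysed count in Chic1-4kbD and 0.489% and 0.211% in Chic1-14kbD. In the titles, the Chic1-4kbD libraries share a prefix with Linx-51kb-INV, and Chic1-14kbD carries prefixes of its own. Library prefix and allele cannot be told apart in this comparison.

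After the filter on primers, 34359 primer pairs were analysed, of which 1289 joined fragments on both sides of the interval. For each pair of regions, the summed count was divided by the count that the same library gives on average at those distances, with positions corrected for what each allele had lost. Levels below are log2 values of this observed over expected ratio (log2 O/E). Fold changes are log2 values of Chic1-14kbD over Chic1-4kbD from the quasi-likelihood test of edgeR, with their standard error (SE) and with p adjusted after Benjamini-Hochberg over all 779 features fitted together, so that negative values are losses in Chic1-14kbD. Of these features, 18.6% passed an adjusted p of 0.05, 8.99% as higher and 9.63% as lower. Reads carry no molecular identifiers, and p-values measure the spread between these libraries, which may be technical.

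Summed over all distances, contacts that spanned the interval did not differ beyond the spread between libraries. Their log2 O/E was 0.64 and 0.59 in the Chic1-4kbD clones and 0.55 and 0.67 in the Chic1-14kbD replicates, which overlap. The log2 fold change was -0.0072 (SE 0.051, 95% interval -0.11 to 0.10, adjusted p = 0.934). Contacts with both fragments within 300 kb on the same side were at 0.18 and 0.12 in Chic1-4kbD and at 0.12 and 0.15 in Chic1-14kbD, with a fold change of -0.014 (SE 0.027, adjusted p = 0.747). With the expected count taken from these same-side contacts, spanning contacts were at 1.14 and 1.08 in Chic1-4kbD and at 0.97 and 1.11 in Chic1-14kbD. This difference of -0.069 did not pass the test (SE 0.052, adjusted p = 0.360), nor a two-sided exact permutation test over libraries (p = 0.667), in which 2 against 2 libraries cannot go below p = 0.333. Across 83 other tile edges along the map, the contacts that crossed an edge differed by -0.46 to 0.44 between the alleles (median 0.050), and at 81 of these edges the difference was larger in size than across the interval.

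At short range, by contrast, spanning contacts were higher in Chic1-14kbD. The 23 primer pairs that spanned the interval over less than 50 kb were at -0.12 and 0.046 in the Chic1-4kbD clones and at 0.73 and 0.69 in the Chic1-14kbD replicates. The alleles did not overlap, as in 65.6% of all pairs of 50 kb tiles, and 21 of the 23 pairs were higher in Chic1-14kbD. In the rest of the map, outside the spanning pairs and the 300 kb on either side, 17043 of 30589 primer pairs were higher. For the 23 pairs, the fold change was 0.74 (SE 0.13, 95% interval 0.48 to 1.01, adjusted p = 0.000564), or 0.80 relative to the same-side contacts (adjusted p = 0.000445). In the inversion libraries the same pairs were between -0.70 and -0.058. With reference coordinates, which leave the shorter distance on the deleted alleles uncorrected, the value was 1.34. When the totals of all primers were balanced between libraries, an alternative added after the data had been seen, it was 0.53 and no longer past the threshold (adjusted p = 0.0573). From 50 to 100 kb the fold change was 0.20 (adjusted p = 0.166), against 0.40 with reference coordinates (adjusted p = 0.00928). Beyond 100 kb it lay between -0.24 and 0.044, with no bin past the threshold. The bin from 200 to 250 kb came nearest to it, at 0.22 and 0.23 in Chic1-4kbD and at 0.014 and -0.042 in Chic1-14kbD (adjusted p = 0.0593).

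Contacts within the 300 kb left of the interval, which hold Linx and Cdx4, were lower in Chic1-14kbD. They were at 0.27 and 0.19 in Chic1-4kbD and at 0.10 and 0.10 in Chic1-14kbD, with a fold change of -0.14 (SE 0.043, adjusted p = 0.0310). The loss was found from 50 to 100 kb, where levels of 0.29 and 0.24 in Chic1-4kbD stood against -0.068 and -0.078 in Chic1-14kbD (fold change -0.34, adjusted p = 0.00441). From 100 to 150 kb, levels of -0.33 and -0.33 stood against -0.66 and -0.91 (fold change -0.44, adjusted p = 0.0141). Under 50 kb, the fold change was -0.095 and did not pass the threshold (adjusted p = 0.142). These calls were less stable than the short-range gain. The call over all distances was lost with DESeq2 (adjusted p = 0.0875), with balanced primer totals (-0.011) and without Chic1-4kbD replicate 1 (-0.095, adjusted p = 0.298) or either Chic1-14kbD library (adjusted p = 0.0847 without replicate 1 and 0.107 without replicate 2). Without Chic1-4kbD replicate 1, the adjusted p was 0.0686 from 50 to 100 kb and 0.0783 from 100 to 150 kb, and the latter call was also lost without Chic1-4kbD replicate 2 (0.0693), without Chic1-14kbD replicate 2 (0.145) and with balanced primer totals (-0.29, 0.169). The call from 50 to 100 kb was lost without outlier primer pairs (-0.22, adjusted p = 0.0605), and all 3 calls were lost with library size as the offset or with TMM (adjusted p 0.0745 to 0.682). Within the 300 kb right of the interval, where Tsx, Tsix and Xist lie, the fold change was 0.040 (SE 0.029, 95% interval -0.021 to 0.10, adjusted p = 0.341), and no distance bin passed the threshold.

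**Figure D2:**
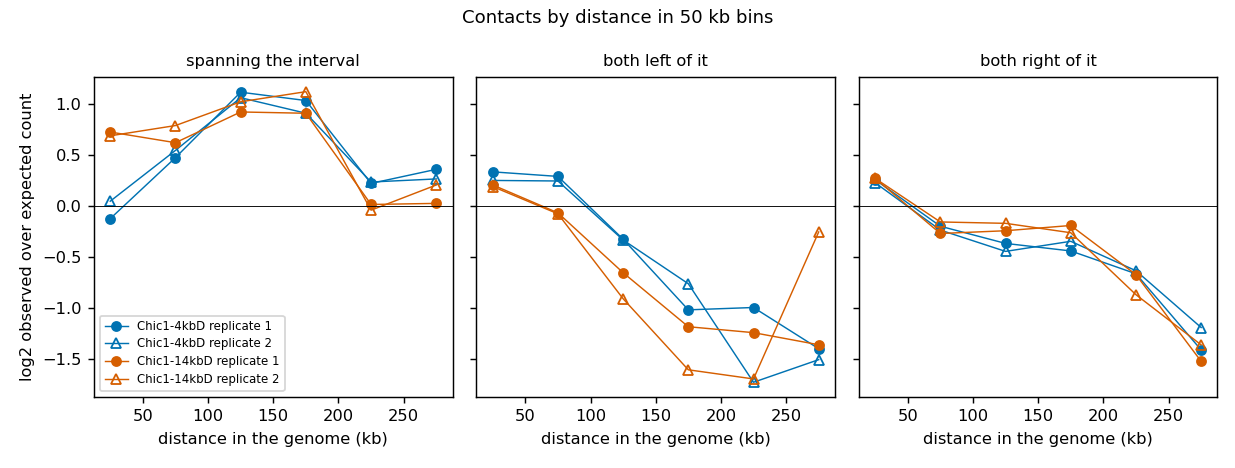
Log2 O/E (y axis) by distance in the genome in 50 kb bins (x axis, kb), for contacts that span the interval and for those on its left or right, with 1 line per deletion library. Under 50 kb, the Chic1-14kbD libraries lie above the Chic1-4kbD libraries for spanning contacts (0.73 and 0.69 against -0.12 and 0.046).

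Among pairs of named loci, 6 of 59 (10.2%) passed the threshold, 1 higher (1.69%) and 5 lower (8.47%) in Chic1-14kbD, and 4 of the 6 involved the sequence of Chic1 that both alleles keep, as did 19 of the 59 pairs tested (32.2%). The part of Chic1 right of the interval, seen by 4 fragments, had lower contacts with Linx in Chic1-14kbD. Its log2 O/E was 1.66 and 1.63 in the Chic1-4kbD clones and 0.88 and 0.70 in the Chic1-14kbD replicates, and 47 of 53 primer pairs were lower in Chic1-14kbD. The fold change was -0.85 (SE 0.12, 95% interval -1.09 to -0.60, adjusted p = 6.55e-05), larger than the spread between libraries. The same part of Chic1 also had lower contacts with the sequence between Tsx and Xist, which holds Xite and the start of Tsix. The level was 1.49 and 1.42 in Chic1-4kbD and 0.65 and 0.26 in Chic1-14kbD, with 18 of 20 primer pairs lower and a fold change of -0.97 (SE 0.13, 95% interval -1.25 to -0.70, adjusted p = 4.6e-05). In the rest of the map, outside the spanning pairs and the 300 kb on either side, 13343 of 30589 primer pairs were lower. Both calls held under each alternative that gave a value, with fold changes between -0.94 and -0.41 for Linx and between -1.20 and -0.40 for the Tsx-Xist interval. The values nearest 0 were those with balanced primer totals, where the adjusted p was 0.0469 for Linx and 0.0141 for the Tsx-Xist interval. Contacts with Nap1l2, a nucleosome assembly protein gene within Linx, rested on 8 primer pairs, with levels of -0.13 and -0.22 in Chic1-4kbD and -1.0 and -1.69 in Chic1-14kbD and a fold change of -1.06 (SE 0.33, adjusted p = 0.0295). This call was lost with library size as the offset (adjusted p = 0.0659), TMM (0.0538) or balanced primer totals (-0.67, 0.217), without the nearest fragment on each side (0.104) and without Chic1-4kbD replicate 1 (0.115), Chic1-4kbD replicate 2 (0.0843) or Chic1-14kbD replicate 2 (0.183).

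The part of Chic1 left of the interval did not pass the test with either partner. With Linx, it was at 0.84 and 0.78 in Chic1-4kbD and at 0.56 and 0.67 in Chic1-14kbD (fold change -0.20, SE 0.11, 95% interval -0.43 to 0.027, adjusted p = 0.196). With balanced primer totals this value was -0.39 and past the threshold (adjusted p = 0.0191). With the Tsx-Xist interval, it was at 0.24 and 0.44 in Chic1-4kbD and at 0.54 and 0.88 in Chic1-14kbD (fold change 0.37, SE 0.16, 95% interval 0.026 to 0.71, adjusted p = 0.121). The level of the right part minus that of the left part, with Linx as the partner, was 0.81 and 0.85 in Chic1-4kbD and 0.32 and 0.032 in Chic1-14kbD. With the Tsx-Xist interval it was 1.25 and 0.97 in Chic1-4kbD and 0.11 and -0.62 in Chic1-14kbD. In both cases the alleles did not overlap, as in 65.6% of all pairs of 50 kb tiles. The two-sided exact permutation test gave p = 0.333, the smallest it can give with these libraries. The left part includes the fragment next to the interval, which had fewer counts in Chic1-4kbD than in the other libraries. The right-minus-left level was not computed without it.

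The retained parts of Chic1 contacted each other more often in Chic1-14kbD. These 8 primer pairs were at 0.46 and 0.69 in Chic1-4kbD and at 1.22 and 1.03 in Chic1-14kbD, after correction for the distance lost, with a fold change of 0.55 (SE 0.14, adjusted p = 0.0118). The call was lost without Chic1-4kbD replicate 1 (0.44, adjusted p = 0.138), without Chic1-14kbD replicate 1 (0.45, adjusted p = 0.0988) and without the nearest fragment on each side (0.51, adjusted p = 0.0543). Contacts of Linx with the Tsx-Xist interval, which flank Chic1 on either side, were at 2.10 and 1.91 in Chic1-4kbD and at 1.92 and 2.22 in Chic1-14kbD, and the alleles overlapped (fold change 0.068, SE 0.11, 95% interval -0.15 to 0.29, adjusted p = 0.688). With balanced primer totals this value was 0.37 (adjusted p = 0.0376). Cdx4, a homeobox gene left of Chic1, had no pair past the threshold with Linx (-0.29, adjusted p = 0.0622) or with the left part of Chic1 (0.52, adjusted p = 0.0673). The Tsx-Xist interval with Xist was also past the threshold (-0.31, adjusted p = 0.0246). This call was lost without either Chic1-4kbD library (adjusted p = 0.106 and 0.165), without Chic1-14kbD replicate 1 (0.126), with library size as the offset (0.220) and with TMM (0.229). It was at -0.10 with balanced primer totals (adjusted p = 0.171) and at -0.16 for primer pairs at least 10 kb apart (0.226).

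**Figure D3:**
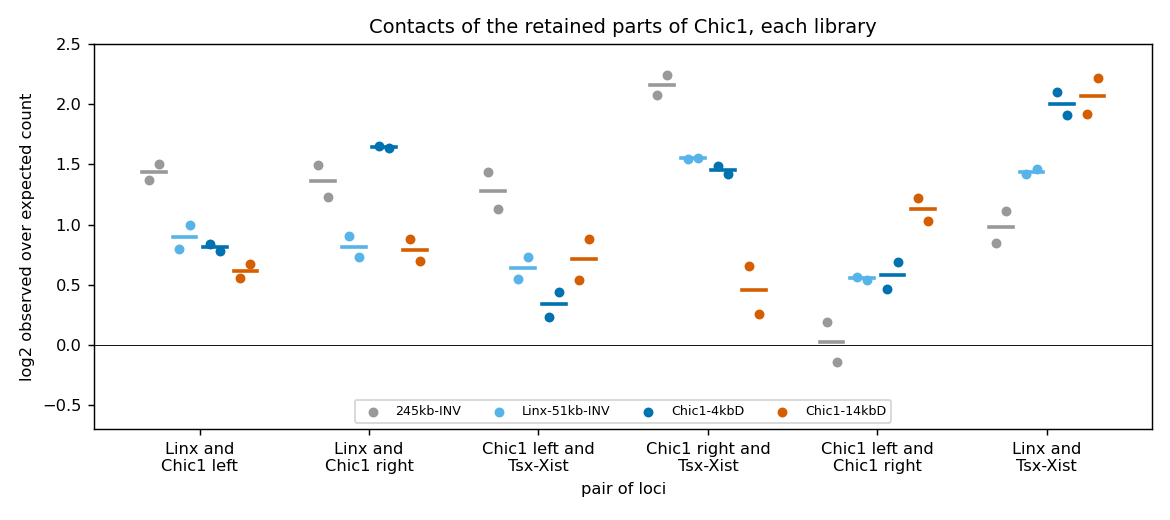
Log2 O/E (y axis) for 6 pairs of loci (x axis) in each of the 8 libraries, as 1 point per library, with bars at the mean of an allele. The part of Chic1 right of the interval lies lower in Chic1-14kbD than in Chic1-4kbD with Linx and with the Tsx-Xist interval, whereas the alleles overlap for Linx with the Tsx-Xist interval.

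Single fragments showed where within Chic1 such contacts differed, as a description without a test. Here Linx includes the fragments over Nap1l2, which the locus pairs counted under Nap1l2. The Tsx-Xist interval includes a fragment overlapping the end of Tsx, which they counted under Tsx. With Linx, the 4 fragments of Chic1 right of the interval differed by -0.96, -0.75, -0.94 and -0.70 between the mean log2 O/E of the alleles, from left to right. The next fragment to the right (100592174 to 100597573), beyond the end of the gene, had a difference of -0.57. Further right, the fragment from 100598294 to 100601154 differed by 1.38, in the opposite direction. The other fragments between 100597574 and 100609230 differed by -0.20 to 0.092. With the Tsx-Xist interval, the 4 fragments of Chic1 differed by -1.20, -0.48, -0.81 and -0.68. The fragment nearest to the interval in this set, from 100583703 to 100585257, had the largest of these differences, at 1.96 and 1.87 in Chic1-4kbD and 0.83 and 0.60 in Chic1-14kbD. Left of the interval the fragments did not move together. With Linx, the fragment from 100557103 to 100560524 was at 1.70 and 1.57 in Chic1-4kbD and at 0.87 and 1.23 in Chic1-14kbD. Its neighbor next to the interval (100560525 to 100565597) was at -0.70 and -0.69 in Chic1-4kbD and at 0.20 and -0.21 in Chic1-14kbD, the opposite direction. This is the fragment that had fewer counts in Chic1-4kbD than in the other 6 libraries.

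With all their partners, 5 of 15 loci (33.3%) passed the threshold, 3 higher (20%) and 2 lower (13.3%) in Chic1-14kbD. The right part of Chic1 was lower, at 0.72 and 0.76 in Chic1-4kbD and at 0.51 and 0.17 in Chic1-14kbD (fold change -0.39, SE 0.084, adjusted p = 0.00328). Its left part was higher, at 0.076 and 0.11 in Chic1-4kbD and at 0.32 and 0.58 in Chic1-14kbD (fold change 0.36, SE 0.087, adjusted p = 0.0066). The latter value was 0.12 (adjusted p = 0.433) without the nearest fragment on each side, and the call was also lost without Chic1-4kbD replicate 1 (adjusted p = 0.0678) or Chic1-14kbD replicate 2 (0.103). Linx was lower, at 0.60 and 0.53 in Chic1-4kbD and at 0.40 and 0.37 in Chic1-14kbD (fold change -0.18, adjusted p = 0.00441), a call lost without Chic1-4kbD replicate 1 (adjusted p = 0.0892) or Chic1-14kbD replicate 2 (0.0543). Higher were Hdac8, a deacetylase gene on the left of the map (fold change 0.22, adjusted p = 0.00182), and Jpx. Jpx, a noncoding RNA gene next to Xist known as an activator of Xist, was at -0.38 and -0.45 in Chic1-4kbD and at -0.14 and -0.095 in Chic1-14kbD (fold change 0.30, SE 0.068, adjusted p = 0.00441), and its call was lost without Chic1-4kbD replicate 2 (adjusted p = 0.0843). Xist itself (-0.025, adjusted p = 0.790), Ftx, another noncoding gene near Xist (0.10, adjusted p = 0.181), and Rlim, a ubiquitin ligase gene that activates Xist (0.15, adjusted p = 0.315), did not pass the threshold. With library size as the offset or with TMM, the left part of Chic1 kept its call and the other 4 loci lost theirs (adjusted p 0.0539 to 0.295), and Jpx was at 0.14 (adjusted p = 0.255) for contacts at most 500 kb apart. Balancing the primer totals brings such sums over all partners close to 0 by construction, and none of the 5 calls was kept there.

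Along the whole map, in tiles of 50 kb counted outward from the interval, 92 of 575 tile pairs (16%) passed the threshold, 45 higher (7.83%) and 47 lower (8.17%) in Chic1-14kbD. Without Chic1-4kbD replicate 1 these counts were 12 and 28, without its replicate 2 they were 22 and 31, and without Chic1-14kbD replicate 2 they were 18 and 25. Of the 20 tile pairs that spanned the interval, 1 was higher and 4 were lower (25%). The libraries of the alleles did not overlap in 65.6% of all tile pairs and in 55% of the spanning ones. The higher spanning pair joined the tiles next to the interval (100515598 to 100565597 with 100580663 to 100630662), at -0.0026 and 0.15 in Chic1-4kbD and at 0.57 and 0.58 in Chic1-14kbD (fold change 0.50, SE 0.11, adjusted p = 0.00328). Its call was lost without Chic1-4kbD replicate 1 (adjusted p = 0.0678) and with balanced primer totals (0.32, adjusted p = 0.159).

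The tile right of the interval, which holds the right part of Chic1, Tsx and part of Tsix, had lower contacts with 2 of the 3 tiles over Linx and with the tile left of them. With the tile of Linx that holds Nap1l2 (100365598 to 100415597), it was at -0.52 and -0.47 in Chic1-4kbD and at -0.94 and -1.26 in Chic1-14kbD (fold change -0.58, adjusted p = 0.00505, but 0.0885 without Chic1-14kbD replicate 2). With the tile left of Linx (100315598 to 100365597), the fold change was -0.64 (adjusted p = 0.0164), a call lost without Chic1-4kbD replicate 2 (0.137) or either Chic1-14kbD library (0.128 and 0.0620). With the middle Linx tile (100415598 to 100465597) it was -0.29 (adjusted p = 0.0492), a call lost without any 1 of the 4 deletion libraries (adjusted p 0.0743 to 0.233). With the Linx tile nearest to the interval (100465598 to 100515597) it was -0.0036 (adjusted p = 0.984). The tile left of the interval, which holds Cdx4 and the left part of Chic1, had lower contacts with the same 2 Linx tiles. With the middle one it was at 0.50 and 0.46 in Chic1-4kbD and at 0.060 and -0.00035 in Chic1-14kbD (fold change -0.45, adjusted p = 0.00719). Its fold change with the tile of Nap1l2 was -0.54 (adjusted p = 0.0342), and both calls were lost without Chic1-4kbD replicate 1 (adjusted p = 0.0692 and 0.0724) or Chic1-14kbD replicate 2 (0.0529 and 0.257), the latter also without Chic1-4kbD replicate 2 (0.189). With the nearest Linx tile its fold change was 0.037 (adjusted p = 0.818), and with the tile left of Linx -0.023 (0.963). Each of these 5 lower calls was lost with library size as the offset (adjusted p 0.0671 to 0.220). With balanced primer totals, the call of the left tile with the middle Linx tile was kept (-0.41, adjusted p = 0.0278) and the other 4 were lost (-0.49 to -0.18, adjusted p 0.0807 to 0.252). Next to the interval, the left tile was higher with itself, at 0.68 and 0.63 in Chic1-4kbD and at 0.87 and 1.16 in Chic1-14kbD (fold change 0.36, adjusted p = 0.0234), but at 0.049 with balanced primer totals (adjusted p = 0.558). This call was also lost without either Chic1-4kbD library (0.0892 and 0.143), without Chic1-14kbD replicate 2 (0.21, adjusted p = 0.273) and without the nearest fragment on each side (0.24, 0.145). The right tile was lower with the tile over Tsix and Xist, at -0.11 and -0.15 in Chic1-4kbD and at -0.44 and -0.42 in Chic1-14kbD (fold change -0.30, adjusted p = 0.0119), and at -0.20 with balanced primer totals (adjusted p = 0.00775). That call was lost without either Chic1-4kbD library (0.124 and 0.0722) and without the nearest fragment on each side (-0.20, 0.110). Both calls were lost with library size as the offset or with TMM (adjusted p 0.127 to 0.229). The last lower spanning pair, between the tile left of the interval and the tile over Ftx and Zcchc13 (100780663 to 100830662), had a fold change of -1.29 (adjusted p = 0.000113), but 1 primer pair held 64.4% and 69.1% of its Chic1-4kbD counts. Without that pair the value was 0.097 (adjusted p = 0.853).

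**Figure D4:**
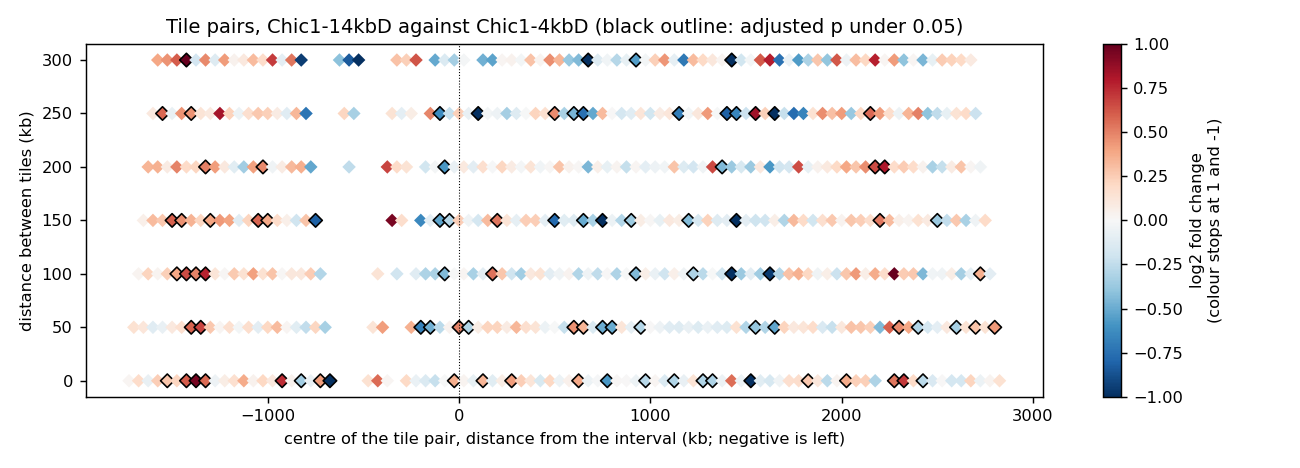
Log2 fold change of Chic1-14kbD relative to Chic1-4kbD (color) for each of the 575 tile pairs, by the distance of its center from the interval in kb (x axis) and by the distance between its tiles in kb (y axis), with black outlines at adjusted p under 0.05. Calls are spread over the whole map and are not limited to the surroundings of the interval at 0.

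Differences of the same size or larger were found far from the interval. Of the 16 named tile pairs, the 8 with the smallest p in each direction, 15 did not touch the interval. Most of the 575 tile pairs do not touch it either. Of the 12 that hold the tile on its left, 41.7% passed the threshold. Of the 13 that hold the tile on its right, 38.5% did, against 16% of all tile pairs. The pair joining both tiles counts in each set. Among the 8 named higher pairs, 6 lay between 98965598 and 99315597, in and next to Nhsl2, over 1 Mb from the interval. The tile within Nhsl2 from 99165598 to 99215597 was, with itself, at -1.54 and -1.57 in Chic1-4kbD and at -0.70 and -0.50 in Chic1-14kbD (fold change 0.96, SE 0.12, adjusted p = 2.82e-05). In the 500 kb that hold it, 17 of 49 tile pairs were higher and none lower (34.7%, median fold change 0.27), a stretch chosen after the values had been seen. Another higher pair was a tile of Hdac8 with itself (99615598 to 99665597, fold change 0.74, adjusted p = 0.000526), which was at 0.34 (adjusted p = 0.0202) without its largest primer pair. The Hdac8 call was lost with TMM (adjusted p = 0.0629) and with primer pairs at least 10 kb apart (0.29, adjusted p = 0.0861). With balanced primer totals, the Nhsl2 tile was at 0.060 (adjusted p = 0.576) and the Hdac8 tile at 0.00021 (adjusted p = 0.995), and along the whole map 3 tile pairs were higher and 12 lower. The lower pair with the smallest p joined 101230663 to 101280662 with 101380663 to 101430662, at 0.91 and 0.72 in Chic1-4kbD and -0.69 and -1.12 in Chic1-14kbD (fold change -1.69, adjusted p = 1.79e-07). A single primer pair held at least 47.8% of its counts in each Chic1-4kbD library, and without it the fold change was -0.92 (adjusted p = 0.000499). Other lower pairs rested on such primer pairs. Without them, the pair of 101930663 to 101980662 with 102030663 to 102080662 went from -1.15 to -0.27 (adjusted p = 0.240), and that of 102130663 to 102180662 with 102230663 to 102280662 from -0.96 to -0.067 (adjusted p = 0.766). Of the 8 named lower pairs, 5 kept their call without dominant primer pairs and 6 with balanced primer totals, against 8 and 0 of the 8 higher ones.

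The inversion libraries gave a reference for such distant differences, since neither the Chic1 deletions nor the inversions touch these tiles. In 524 tile pairs outside the inverted sequence, the difference between Chic1-14kbD and Chic1-4kbD was set beside that between 245kb-INV and Linx-51kb-INV, comparisons that share no library. Their Pearson correlation across tile pairs was 0.37 (Spearman 0.37), given as a description, since tile pairs share libraries and primers. Of the 81 tile pairs called there, 76 had the same sign in both comparisons, against 64.7% of all 524. Among the 51 tile pairs within or reaching into the inverted sequence, including those around Chic1, 4 of 11 called pairs had the same sign. Of all 51, 43.1% did. The inversion libraries are no such reference for these tile pairs, since the inversions rearrange sequence in them. Chic1-4kbD and Linx-51kb-INV, the alleles subtracted in these comparisons, share their prefix, whereas Chic1-14kbD carries prefixes of its own. The part of the prefix in the distant differences was not tested.

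**Figure D5:**
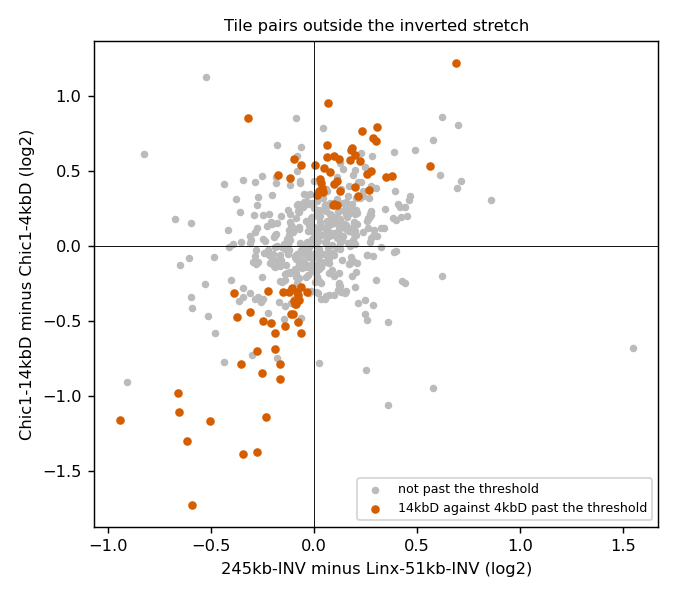
Difference between Chic1-14kbD and Chic1-4kbD in the mean log2 O/E (y axis) against the difference between 245kb-INV and Linx-51kb-INV (x axis) for 524 tile pairs outside the inverted sequence. Of the 81 tile pairs past the threshold, in orange, 76 lie in the quadrants where both differences have the same sign.

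Tested one by one, 63 of 32258 primer pairs (0.195%) passed the threshold, 5 higher (0.0155%) and 58 lower (0.18%) in Chic1-14kbD. The lower ones had a median distance of 145 kb, where pairs at most 300 kb apart were tested. Of the 58, 3 had a fragment within 50 kb of the interval. Neither value was set beside that of all tested pairs, so they do not show where the lower pairs concentrate. Their lowest observed over expected ratio, not as log2, had a median of 8.56 in Chic1-4kbD and 5.19 in the inversion libraries. Their highest ratio in Chic1-14kbD had a median of 0.955. As medians, these pairs were thus far above the distance expectation in the other alleles and near it in Chic1-14kbD. In each of the 58, both Chic1-14kbD libraries were below the other 6 libraries in log2 O/E. The pairs were picked by the same values, so this adds no support to the calls. The pair with the smallest p joined 102240311 to 102242052 with 102138976 to 102141534 and had 4847 and 2840 counts in Chic1-4kbD, 4670 to 8451 in the inversion libraries, but 262 and 9 in Chic1-14kbD (fold change -5.54, adjusted p = 7.26e-06). The next pairs joined 102076174 to 102076429 with 101971287 to 101982027 (fold change -4.74) and 101412862 to 101415407 with 101254201 to 101256289 (fold change -3.47). The 5 higher pairs were all at most 5.03 kb apart. The second by its p joined 100598294 to 100601154 with 100602378 to 100603299, right of Chic1, with 2890 and 1673 counts in Chic1-4kbD and 14108 and 1688 in Chic1-14kbD (fold change 1.44, adjusted p = 0.0113). The others among the 3 with the smallest p joined 99155825 to 99157014 with 99157015 to 99157333 (fold change 1.74) and 101178883 to 101180231 with 101178472 to 101178882 (fold change 1.45).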

How the data were processed

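Sequencing reads of 8 5C libraries were trimmed by the authors, aligned (Bowtie2) against every possible primer pair, and deposited as raw counts of reads per primer pair, before the authors' removal of inefficient primers, pooling, binning and normalization. The versions of these tools are not given in the sources used here. The deposited fragment positions are in mm9, which also served as the reference sequence, with gene positions from GENCODE vM1. The interval came with the choice of the comparison, and the members, loci, tiles and tests were chosen with earlier results of these data known.

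Primers whose total fell outside 0.1 to 10 times the median total of forward or reverse primers, and fragments overlapping the interval, were left out, which kept 503 forward and 514 reverse primers with those of the interval. Expected counts followed the distance decay of each library in 40 distance bins, interpolated on a log scale, with positions corrected for the deletion or inversion. They entered edgeR 4.0.16 (R 4.3.3) as offsets, with 1 coefficient per allele over all 8 libraries. Features had a mean count of at least 50, and single primer pairs of at least 10. Printed log2 ratios carry a pseudocount of 0.5 on observed and expected counts. Named were the 8 tile pairs with the smallest p in each direction, called tile pairs touching the interval, called locus pairs and those around Chic1, and 3 single primer pairs per direction. Groups came from the genotype labels. Alternatives were DESeq2 1.42.0, other offsets, filters, tiles and distance limits, background subtraction, thinning and leaving out single libraries. The functions were tested on simulated data, where the share of false calls stayed under the threshold for tile pairs but exceeded it for single primer pairs, far more with DESeq2 than with edgeR. Of the locus pairs past the threshold, 1 is not reported here.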

Additional observations from a re-analysis of the deposited data

Results flagged for a closer look

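Counts on fragments inside the deleted interval enter no comparison, but they were not 0 in alleles with a loss there. Each is a sum over many primer pairs, as 352 pairs at most 300 kb apart hold a fragment of the interval. The background, as the mean count of a single pair joining chromosomes X and 5, was 2.16 and 0.0779 in Chic1-14kbD. It was 5.93 and 5.26 in Chic1-4kbD. Chic1-14kbD replicate 1 had 5.45, 3.48, 5.26 and 7.29 CPM on the 4 fragments from 100565598 to 100579404, that is 83, 53, 80 and 111 counts. Replicate 2, the shallowest library, had 31.4, 16.5, 24.3 and 44.8 CPM, or 40, 21, 31 and 57 counts, and was thus higher than replicate 1 on each of the 4 fragments. In Chic1-4kbD, the fragment from 100565598 to 100567847 was at 74.8 and 46.1 CPM (477 and 219 counts), above both Chic1-14kbD libraries. In the inversion libraries that fragment was at 2668 to 2963 CPM. What the remaining counts come from was not tested.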

How the results depend on the processing

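No paired analysis was possible because the labels carry no replicate numbers, and the numbers used here follow the order of the libraries. Of 980 values computed for 47 single results (loci, named locus pairs and tile pairs, single flanks and distance bins, without the 3 sums over all distances given last), 839 kept their direction and side of the threshold, 128 lost the call, 5 gained it and 8 changed sign. Of tile pairs, 45 were higher and 47 lower in Chic1-14kbD. These counts were 10 and 20 with library size as the offset, 10 and 21 with TMM, 28 and 29 with 100 kb tiles, and 3 and 12 with balanced primer totals. With tiles at multiples of 50 kb, 71 were higher. Without single libraries they ranged from 12 to 44 and from 25 to 51, the lowest being 12 higher without Chic1-4kbD replicate 1 and 25 lower without Chic1-14kbD replicate 2. They were 22 and 31 without Chic1-4kbD replicate 2, and 18 were higher without Chic1-14kbD replicate 2.

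Of locus pairs, 1 was higher and 5 were lower. With reference coordinates, DESeq2, the 4 deletion libraries alone or balanced primer totals, 2 were higher. Without the nearest fragments none was higher by edgeR (0, with 3 at an unadjusted p under 0.05). Lower were 3 with library size, 2 with TMM, 3 within 200 kb and 3 with balanced totals. Without single libraries, 0 to 1 were higher (0 without Chic1-4kbD replicate 1, with 5 at an unadjusted p under 0.05) and 2 to 4 lower (2 without Chic1-4kbD replicate 2, 3 without Chic1-4kbD replicate 1 or Chic1-14kbD replicate 2). Of single primer pairs, 5 were higher and 58 lower by edgeR, against 269 and 406 by DESeq2, which made the larger share of false calls on simulated data. With no filter on low counts 12 were higher, and with library size 3. Without single libraries, 0 to 8 were higher and 21 to 55 lower. None was higher without Chic1-4kbD replicate 2 (448 at an unadjusted p under 0.05) or Chic1-14kbD replicate 2 (290), 2 without Chic1-4kbD replicate 1 and 8 without Chic1-14kbD replicate 1. Lower were 25 without Chic1-4kbD replicate 1 and 21 without replicate 2.

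The 3 sums over all distances had values near 0 that changed sign without passing the threshold. The log2 fold change of spanning contacts was 0.037 with library size, 0.13 with reference coordinates, 0.052 with TMM, 0.052 within 200 kb, 0.077 within 500 kb and 0.00098 for pairs at least 10 kb apart, and -0.069 to 0.053 without single libraries. That of same-side contacts was 0.0028 with library size, 0.027 with TMM and 0.0045 with balanced totals, and -0.041 to 0.014 without single libraries. Contacts spanning relative to non-spanning were at 0.037 with library size and 0.14 with reference coordinates, and at -0.14 to -0.0043 without single libraries. Spanning contacts from 150 to 200 kb were at 0.044, but at -0.031 without outlier primer pairs and at -0.064 to 0.15 without single libraries (-0.016 without Chic1-4kbD replicate 2, -0.064 without Chic1-14kbD replicate 2). With balanced totals, the tile pairs within Nhsl2 (0.68, 99165598 to 99215597 with its right neighbor), at 102830663 to 102880662 (0.53) and at 101330663 to 101380662 (-0.58) were at -0.060, -0.039 and 0.043, and the tile pair from Chic1 to Ftx was at 0.097 without dominant and 0.022 without outlier primer pairs. The causes were not tested. Depth limits single primer pairs, whose median count above 0 was 14 in Chic1-14kbD replicate 2 and 73 to 201 in the other libraries. With all libraries thinned to its depth, none of the 47 results lost or gained its call.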

Other observations

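The fragment from 100598294 to 100601154, between Chic1 and Tsx, had 1443 and 1206 CPM in Chic1-4kbD, 1546 and 1413 in Linx-51kb-INV, 3509 and 2545 in 245kb-INV and 3984 and 4249 in Chic1-14kbD. Its level was thus lower in the 4 libraries of the prefix that Chic1-4kbD and Linx-51kb-INV share than in the other 4. Its log2 O/E with the Tsx-Xist interval was -1.24 and -1.31 in Chic1-4kbD and 0.65 and 0.79 in Chic1-14kbD, opposite in direction to the 4 Chic1 fragments right of the interval.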
